A study of Mus musculus with 24 samples.

Results

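Whole mouse lung was searched for 10 genes of injured, stressed or basal epithelium: Sprr1a, Krt8, Krt18, Krt19, Krt7, Krt5, Cldn4, Sfn, Calml3 and Cdh26. They were taken by symbol from a table of gene counts, where each of the 10 matched 1 row of 26253, and all 10 passed the filter on low counts that left 16153 genes for testing. Before exposure to filtered air or to ozone, a gas that oxidises and damages the airway surface, the mice were fed control food or food rich in docosahexaenoic acid (DHA), an omega-3 fatty acid. The 4 groups were control-diet air, control-diet ozone, DHA-diet air and DHA-diet ozone, with 6 RNA sequencing libraries each and 24 in all. Strain, age, sex, the length of feeding, the ozone dose and the time of sampling are not stated in the labels. Nor do they state that the 6 libraries of a group are 6 animals, and the p-values therefore reflect library-to-library spread, which may be technical.

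Simple epithelia carry a thin network of keratin filaments made of a type II keratin (Krt7 or Krt8) paired with a type I keratin (Krt18 or Krt19), and these keratins increase when epithelial cells are stressed. After injury of the alveoli, type 2 cells on their way to becoming type 1 cells pass through a flat, transitional state known for high Krt8, Krt19, Sfn and Cldn4. Squamous epithelia instead use Krt5 in their basal layer and proteins such as Sprr1a, which transglutaminases crosslink into a tough envelope beneath the cell membrane.

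After ozone 7 of the 10 genes were higher and 2 were lower when the diets were averaged, so the genes did not move as 1 set. Sprr1a rose 5.85-fold, Sfn 1.62-fold, the 4 simple keratins 1.25 to 1.44-fold and Cldn4, a tight junction protein, 1.23-fold. Calml3 fell to 0.561 of its air level and Cdh26 to 0.492, and Krt5 was not called in either direction. Over all genes tested, 18.5% were called higher and 16.9% lower in the same comparison. A call is a Benjamini-Hochberg adjusted p under 0.05 in edgeR's quasi-likelihood test, and levels are CPM (counts scaled to a common library size) with library sizes scaled by TMM. Whole lung mixes many cell types, and a change in the number of cells of a type cannot be told apart from a change in RNA per cell.

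Promoter sequences are shown for the gene with the largest change, Sprr1a, for Cldn4, which has the same motif, and for the neighbours Krt8 and Krt18, which varied together and hold none of the motifs searched in these windows. They are the 250 bases before each gene's start in RefSeq annotation of GRCm38.p6, printed 5′ to 3′ on the gene's strand, and the promoter table held 8 of the 10 genes, without Krt19 and Calml3. They lie at chr3:92485882-92486131 (Sprr1a, minus strand), chr5:134946935-134947184 (Cldn4, minus), chr15:102004343-102004592 (Krt8, minus) and chr15:102027966-102028215 (Krt18, plus). Capitals mark the AP-1 motif TGANTCA, bound by Fos and Jun factors, and the TATA box TATAAA.
Sprr1a: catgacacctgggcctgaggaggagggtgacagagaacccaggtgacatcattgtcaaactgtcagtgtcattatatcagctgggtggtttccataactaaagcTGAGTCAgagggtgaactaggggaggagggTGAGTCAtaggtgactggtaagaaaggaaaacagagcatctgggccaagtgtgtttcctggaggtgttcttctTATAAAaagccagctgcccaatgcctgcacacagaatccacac
Cldn4: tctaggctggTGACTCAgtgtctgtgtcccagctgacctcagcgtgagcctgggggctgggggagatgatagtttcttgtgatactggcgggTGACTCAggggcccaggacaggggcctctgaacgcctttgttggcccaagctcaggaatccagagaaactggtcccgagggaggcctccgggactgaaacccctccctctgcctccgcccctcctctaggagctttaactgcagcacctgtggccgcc
Krt8: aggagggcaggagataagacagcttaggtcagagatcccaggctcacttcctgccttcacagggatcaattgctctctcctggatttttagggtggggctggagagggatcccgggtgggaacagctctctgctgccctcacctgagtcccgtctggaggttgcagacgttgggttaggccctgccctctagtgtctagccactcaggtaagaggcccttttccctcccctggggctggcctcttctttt
Krt18: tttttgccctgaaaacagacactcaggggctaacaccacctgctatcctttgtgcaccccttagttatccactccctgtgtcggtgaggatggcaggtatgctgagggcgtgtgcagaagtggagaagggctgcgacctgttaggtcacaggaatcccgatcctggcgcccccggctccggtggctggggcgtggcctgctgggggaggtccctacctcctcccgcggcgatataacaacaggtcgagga

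The Sprr1a promoter holds 2 copies of TGAGTCA, at 146 to 140 and 116 to 110 bases before the start, and a TATA box at 43 to 38. Cldn4 holds 2 copies of TGACTCA, at 240 to 234 and 158 to 152 bases before the start. Both strands were searched, and TGANTCA reads the same way on either strand. Of 27025 promoters of this length, 6.87% hold at least 1 AP-1 match, 0.326% hold 2 or more and 13% hold TATAAA. The antioxidant response element core TGACNNNGC, present in 10.1% of promoters, matched once among the 8 genes, in Sprr1a at 148 to 140, where it overlaps the AP-1 match. The TEAD motif GGAATG, present in 12.6% of promoters, matched none of the 8. These matches are letters in a window: binding was not measured, and the motifs were picked with the sequences in view.

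In air the 10 genes spanned a wide range of levels. Per kilobase of exon, which allows genes of different length to be compared, the simple keratins led in control-diet air with 151 CPM per kb for Krt19, 134 for Krt18, 129 for Krt8 and 73.9 for Krt7. Sfn stood at 15.8, Cldn4 at 13.3 and Calml3 at 12.9 CPM per kb, followed by Cdh26 at 1.79, Sprr1a at 1.73 and Krt5 at 0.860. Between neighbours in this order, the 6 libraries did not overlap between Krt8 and Krt7, between Krt7 and Sfn, or between Calml3 and Cdh26. Their ranges overlapped in the other 6 steps. Compared within each library, Krt19 was still above Krt18 in 6 of 6, and Krt18 was above Krt8 in 2 of 6. In each remaining overlapping step the gene of higher mean led in 4 of 6. The keratins of simple epithelium were thus the abundant members, and the squamous genes Sprr1a and Krt5 lay near the bottom.

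**Figure D1:**
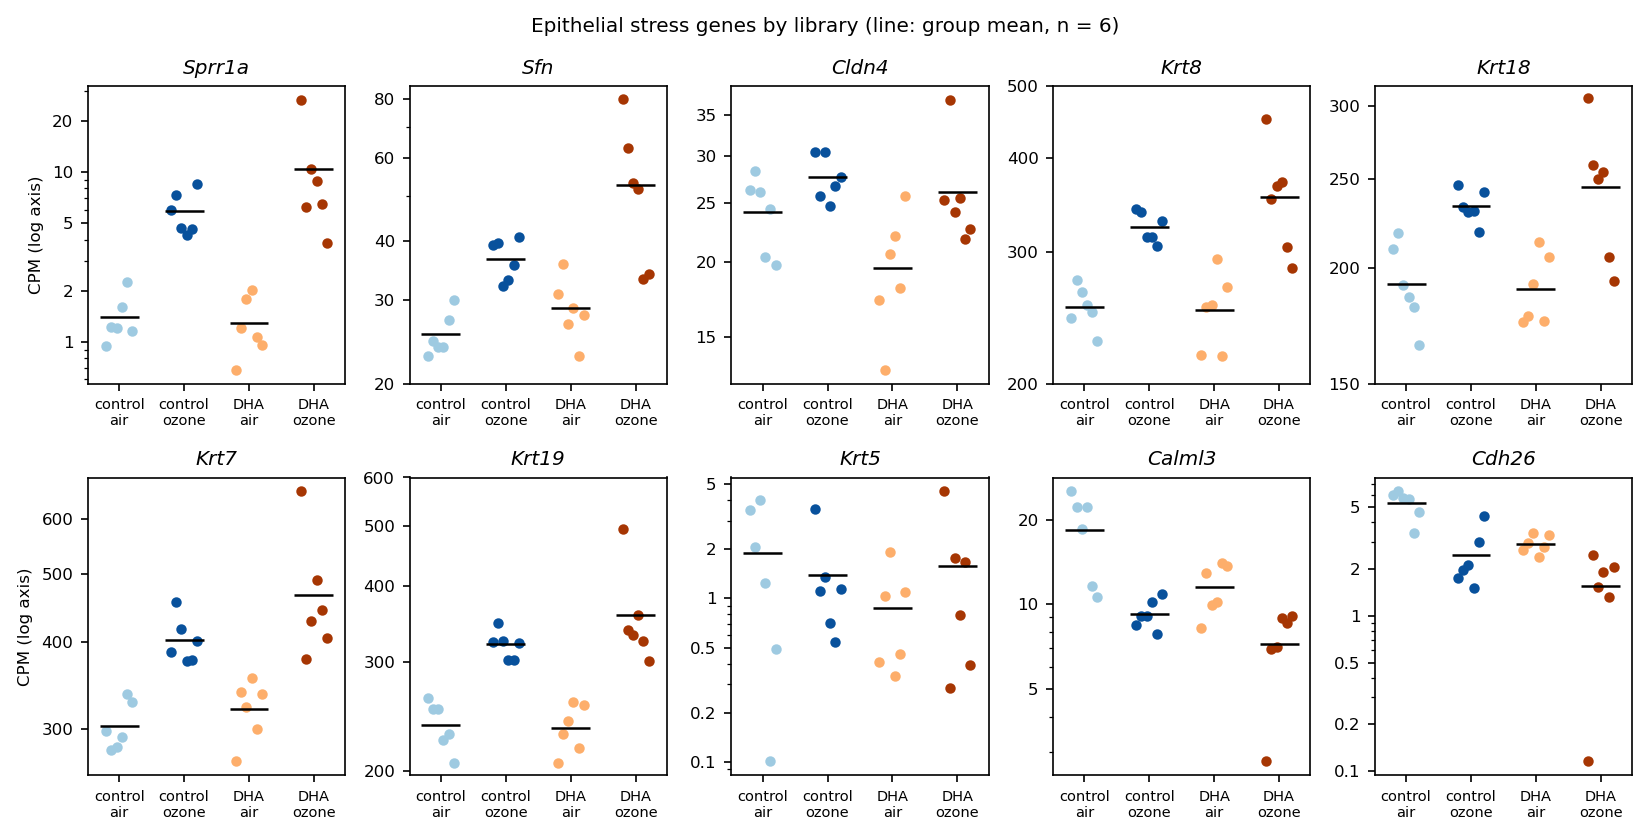
Each point is 1 library, in CPM on a log axis that differs between panels, with the 4 groups of 6 libraries along the x axis and a line at each group mean. Sprr1a separates ozone from air on both diets, Calml3 and Cdh26 lie lower after ozone, and the first DHA-diet ozone library stands apart for Sprr1a (26.7 CPM) and Calml3 (2.77 CPM).

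Sprr1a encodes a small proline-rich protein of the cornified envelope, encoded on chromosome 3 (92391261 to 92393189, mm39, as deposited). In control-diet air it had 0.944, 1.21 and 2.26 CPM (lowest, median and highest of 6 libraries) and in control-diet ozone 4.27, 5.33 and 8.45 CPM. With DHA it went from 0.682, 1.14 and 2.02 CPM in air to 3.84, 7.63 and 26.7 CPM in ozone. On each diet every ozone library lay above every air library, and the DHA-diet ozone libraries were the most spread. The mean rose from 1.40 ± 0.474 to 5.88 ± 1.69 CPM on the control diet (SD, n = 6) and from 1.29 ± 0.512 to 10.4 ± 8.29 CPM on the DHA diet. The fitted rise was 4.22-fold on the control diet (log2 2.08 ± 0.37 SE, edgeR adjusted p = 4.37e-04). On the DHA diet it was 8.11-fold (3.02 ± 0.37, edgeR adjusted p = 4.18e-06). Genes called at least 4-fold higher made up 0.0619% of those tested on the control diet (10 genes) and 0.0991% on the DHA diet (16 genes). Sprr1a was among both, on the control diet only just. Leaving out single libraries gave a control-diet log2 rise of 1.94 to 2.26, the lower end of which is under 4-fold. It was called each time (largest edgeR adjusted p 0.00175). Without DHA-diet ozone library 1 the rise on the DHA diet was 2.47 on the log2 scale, with an edgeR adjusted p of 9.08e-07.

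Other genes of the cornified envelope and squamous keratins varied in level, and several Sprr and Lce genes had no reads. Of 30 listed genes of the cornified envelope and squamous keratins, 13 passed the filter and 9 had no count in any library: Sprr1b, Sprr2a1, Sprr2a2, Sprr2b, Sprr2d, Sprr2f, Sprr2h, Lce3a and Lce3c. With the diets averaged, 2 of the 13 were called higher and 0 lower, a share no higher than the 18.5% of all genes called higher, and their median log2 change was 0.06, against −0.01 over all genes. The list as a whole thus gave no result, and the called pair, Tgm1 and Krt4, are described as single genes. Tgm1, a transglutaminase that crosslinks envelope proteins, rose from 3.73 ± 0.775 to 8.74 ± 1.14 CPM on the control diet (SD, n = 6; 2.34-fold, edgeR adjusted p = 2.93e-04). With DHA, Tgm1 rose from 3.56 ± 0.452 to 10.8 ± 4.99 CPM (3.04-fold, edgeR adjusted p = 1.00e-05). Krt4, a keratin of moist squamous linings, passed the test on the DHA diet, from 0.249 ± 0.160 to 1.00 ± 1.03 CPM (3.97-fold, edgeR adjusted p = 0.00859), and on the control diet had 0.396 ± 0.195 and 0.522 ± 0.289 CPM (adjusted p = 0.735). Markers of oesophageal and stratified squamous tissue, which could enter with a dissected lung, summed to 24.6 to 43.6 CPM in control-diet air, 16.2 to 60.1 in control-diet ozone, 25.7 to 40.7 in DHA-diet air and 30.6 to 50.4 in DHA-diet ozone. Of those 12 markers 5 were tested, and Dsg3 was at 0 in every library. With the diets averaged 1 of the 5 was called higher and 0 lower, near the 18.5% of all genes called higher. That 1 was Krt4, the same call as in the list above. On the control diet 0 of the 5 were called, and on the DHA diet 1 was higher, where 12.7% of all genes were. The part of this list in the squamous genes was not tested.

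Sfn (stratifin, or 14-3-3 sigma) (chromosome 4, 133327867 to 133329480) is an adaptor protein of epithelial cells that p53 induces and that holds back the cell cycle. It had 22.9, 24.3 and 30.1 CPM in control-diet air (lowest, median and highest) and 32.2, 37.4 and 40.8 CPM in control-diet ozone. DHA-diet libraries had 22.8, 28.4 and 35.7 CPM in air and 33.4, 52.4 and 80.1 CPM in ozone. The control-diet groups did not overlap, whereas the lowest DHA-diet ozone libraries lay within the range of the DHA-diet air libraries. Sfn rose 1.44-fold on the control diet (log2 0.53 ± 0.15 SE, edgeR adjusted p = 0.0169) and 1.82-fold on the DHA diet (0.87 ± 0.15, adjusted p = 1.68e-04). The call on the control diet was lost without control-diet air libraries 1 to 3 (edgeR adjusted p = 0.165).

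Of 18 p53 targets 5 were called higher and 1 lower with the diets averaged, where 18.5% and 16.9% of all genes were, and the median log2 change was 0.06. On the control diet 1 was higher and 0 lower (8.93% and 7.87% of all genes). On the DHA diet 4 were higher and 2 lower (12.7% and 11%). The following changes are with the diets averaged. Gtse1, a cell cycle regulator, rose 2.10-fold (edgeR adjusted p = 6.96e-05), Bax, which promotes cell death, rose 1.12-fold (0.00242), and Phlda3, an inhibitor of Akt signalling, rose 1.12-fold (0.0140). Trp53inp1, a p53-induced nuclear protein, was lower at 0.807 of its air level (edgeR adjusted p = 2.07e-04). All 12 markers of proliferating cells were called higher after ozone on each diet, where 8.93% (control diet) and 12.7% (DHA diet) of all genes were. The summed level of these markers went from 65.9 to 86.6 CPM in control-diet air to 131 to 206 CPM in control-diet ozone. On the DHA diet that sum was 68.9 to 97.3 CPM in air and 102 to 358 CPM in ozone, highest in ozone library 1. The part of dividing cells in these changes was not tested.

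The simple keratins rose together by modest folds. Krt8, the type II keratin used to mark transitional alveolar cells, had 228, 252 and 275 CPM in control-diet air and 305, 322 and 343 CPM in control-diet ozone. In DHA-diet libraries it had 218, 254 and 294 CPM in air and 286, 360 and 451 CPM in ozone. The control-diet groups did not overlap, and 5 of the 6 DHA-diet ozone libraries lay above all DHA-diet air libraries. Krt8 rose 1.28-fold on the control diet (log2 0.36 ± 0.08 SE, edgeR adjusted p = 0.00376) and 1.42-fold on the DHA diet (0.50 ± 0.08, adjusted p = 9.96e-05).

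Krt18, the usual filament partner of Krt8, lies 23.9 kb from it on chromosome 15 (101936651 to 101940462 in mm39, with Krt8 at 101905146 to 101912778). It had 165, 189 and 218 CPM in control-diet air and 219, 232 and 247 CPM in control-diet ozone. DHA-diet libraries had 175, 185 and 213 CPM in air and 194, 252 and 306 CPM in ozone. The control-diet groups lay next to each other without overlapping, and 4 of the 6 DHA-diet ozone libraries lay above all DHA-diet air libraries. Krt18 rose 1.22-fold on the control diet (log2 0.28 ± 0.08 SE, edgeR adjusted p = 0.0196) and 1.29-fold on the DHA diet (0.37 ± 0.08, adjusted p = 0.00202). It was the smallest fold among the 4 simple keratins, and the call on the control diet was lost without control-diet air library 6 (edgeR adjusted p = 0.0550) or without libraries 4 to 6 (0.237).

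Krt19, a type I keratin of simple and transitional epithelium, is on chromosome 11 (100031636 to 100036753). It had 205, 241 and 262 CPM in control-diet air, 302, 324 and 348 in control-diet ozone, 206, 235 and 259 in DHA-diet air and 301, 336 and 495 in DHA-diet ozone. Ozone libraries all lay above air libraries on both diets. The rise was 1.35-fold on the control diet (log2 0.43 ± 0.09 SE, edgeR adjusted p = 0.00114) and 1.53-fold on the DHA diet (0.61 ± 0.09, adjusted p = 2.07e-05). Without DHA-diet ozone library 1, which had 495 CPM, the DHA-diet log2 rise was 0.50.

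Krt7, a type II keratin of simple epithelium on chromosome 15 (101310284 to 101325688), also separated ozone from air without overlap on both diets. Its lowest, median and highest values were 280, 295 and 336 CPM in control-diet air and 376, 394 and 455 CPM in control-diet ozone. They were 269, 329 and 355 CPM in DHA-diet air and 378, 436 and 659 CPM in DHA-diet ozone. Krt7 rose 1.33-fold on the control diet (log2 0.41 ± 0.09 SE, edgeR adjusted p = 0.00392) and 1.46-fold on the DHA diet (0.55 ± 0.09, adjusted p = 1.76e-04). The call on the control diet was lost without control-diet air libraries 1 to 3 (edgeR adjusted p = 0.0761).

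Across the 10 genes, the ozone and air groups did not overlap for 6 on the control diet (Sprr1a, Sfn and the 4 simple keratins), where 4.5% of all genes were higher without overlap, and for 3 on the DHA diet (Sprr1a, Krt19 and Krt7), where 5.14% were. Called genes numbered 6 higher and 2 lower on the control diet, where 8.93% and 7.87% of all genes were called, and 7 higher and 2 lower on the DHA diet, where 12.7% and 11% were. The median log2 change of the 10 was 0.32 on the control diet and 0.52 on the DHA diet, against −0.01 over all genes for each.

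**Figure D2:**
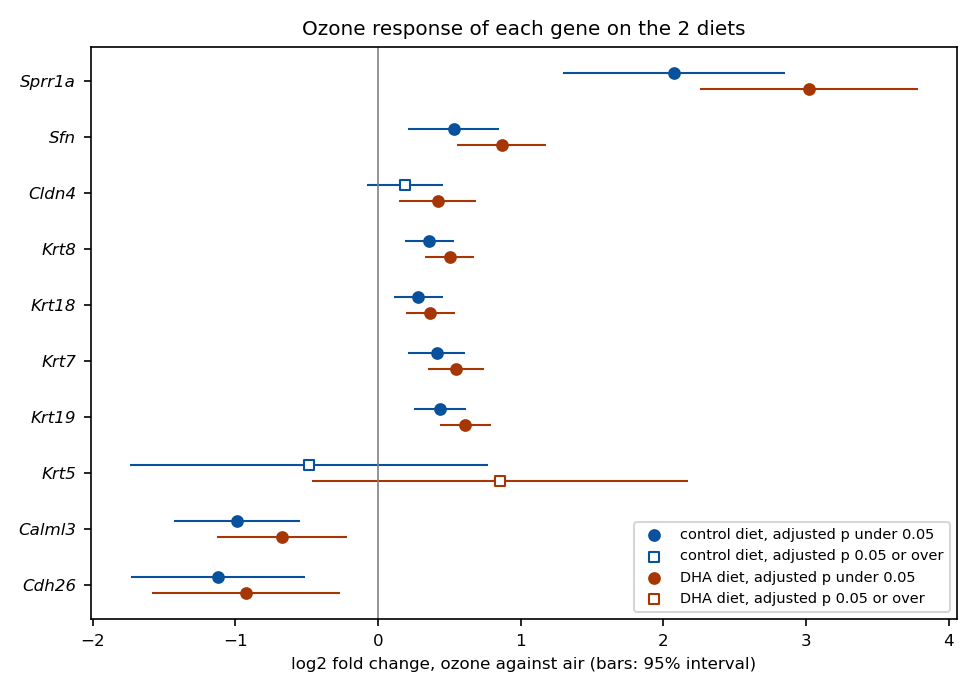
Fitted log2 fold change of ozone against air for each gene, with 95% intervals, for the control diet (blue) and the DHA diet (brown); filled circles passed an adjusted p of 0.05 in edgeR and open squares did not. Sprr1a lies at 2.08 and 3.02, the simple keratins lie between 0.28 and 0.61, and Calml3 and Cdh26 lie below 0 on both diets.

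Epcam, an adhesion protein of nearly all epithelia, went from 115 ± 5.24 to 131 ± 8.90 CPM on the control diet and from 112 ± 6.09 to 125 ± 7.50 on the DHA diet (SD, n = 6; 1.13-fold with the diets averaged, edgeR adjusted p = 2.56e-04). Of 16 pan-epithelial genes 8 were called higher and 0 lower with the diets averaged, where 18.5% and 16.9% of all genes were, and their median log2 change was 0.13; the other 8 did not pass. On the control diet 5 were higher and 1 lower (8.93% and 7.87% of all genes), and on the DHA diet 5 higher and 0 lower (12.7% and 11%). The small GTPase Rab25 rose 1.19-fold (edgeR adjusted p = 1.60e-04) and the membrane protease St14 1.17-fold (5.01e-04). Among cell type markers, alveolar type 2 markers summed to 26091 to 38570 CPM in control-diet air and 36540 to 37751 in control-diet ozone, and 8 of 12 were called higher there. On the DHA diet that sum was 36211 to 40221 CPM in air and 38420 to 41553 in ozone, with 4 of 12 called higher. Alveolar type 1 markers, of which 4 of 12 were called higher and 1 lower on the control diet and 3 higher and 1 lower on the DHA diet, summed to 7388 to 9156 CPM over all libraries. The shares of all genes beside these counts are again 8.93% and 7.87% on the control diet and 12.7% and 11% on the DHA diet. The 1 lower type 1 marker on each diet is near those shares. The part of alveolar type 1 and type 2 cells in the keratin changes was not tested.

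Ratios to Epcam show the keratins against a general epithelial gene within each library. These ratios were chosen after the values had been seen, as 8 ratios in 4 comparisons, and their 32 exact permutation tests (two-sided, smallest possible p 0.00216) were adjusted together. Krt8 to Epcam had a lowest, median and highest ratio of 2.13, 2.20 and 2.29 in control-diet air and 2.29, 2.43 and 2.79 in control-diet ozone, a 1.12-fold difference with all 6 ozone libraries higher (exact p = 0.00216, adjusted 0.0346). On the DHA diet the same ratio differed by 1.26-fold (exact permutation test, adjusted p = 0.0554). Krt19 to Epcam differed by 1.35-fold on the DHA diet with all 6 ozone libraries higher (exact p = 0.00216, adjusted 0.0346) and by 1.19-fold on the control diet (adjusted 0.0519). Krt7 to Epcam differed by 1.16 and 1.29-fold (exact permutation test, adjusted p = 0.147 and 0.104) and Krt18 to Epcam by 1.07 and 1.14-fold (0.228 and 0.190), on the control and DHA diets, and neither passed with all libraries. Leaving out any 1 library of the groups compared gave both called ratios an adjusted p of 0.0519 each time (exact permutation test). With 5 libraries against 6 the exact p is 0.00433 at the smallest. For these ratios that cannot pass the adjustment while the other p-values are kept. Loss of both calls was thus fixed by the number of libraries and shows nothing about any single library. Leaving out 1 library also gave 4 calls that the full groups lacked. These were Krt8 to Epcam on the DHA diet without air library 4 (adjusted 0.0416), Krt7 to Epcam on the DHA diet without ozone library 2 (0.0416), Krt19 to Epcam on the control diet without air library 1 (0.0462) and Krt8 to Krt18 on the DHA diet without ozone library 2 (0.0462), by exact permutation tests. The Krt8 to Krt18 ratio, whose members form 1 filament, differed by 1.05-fold on the control diet (exact permutation test, adjusted p = 0.297) and by 1.10-fold on the DHA diet (0.0519). A list of 12 genes held desmosome and plakin genes that anchor keratin filaments, and the filament proteins Krt10 and Vim. Of the 12, 2 plakophilins were called higher with the diets averaged (Pkp2 1.07-fold and Pkp3 1.12-fold) and 1 cytolinker lower (Plec, 0.908), shares not above those of all genes.

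Cldn4, a claudin that seals the spaces between epithelial cells (chromosome 5, 134973978 to 134975789), had 19.8, 25.3 and 28.3 CPM in control-diet air and 24.7, 27.2 and 30.4 in control-diet ozone. The values on the DHA diet were 13.2, 19.3 and 25.7 CPM in air and 21.8, 24.8 and 37.2 in ozone. Air and ozone libraries overlapped on both diets. The log2 change on the control diet was 0.19 ± 0.13 SE (95% interval −0.08 to 0.45, edgeR adjusted p = 0.341). On the DHA diet Cldn4 rose 1.34-fold (0.42 ± 0.13, edgeR adjusted p = 0.0193), a call lost without DHA-diet ozone library 2, the highest (adjusted p = 0.0677), without ozone libraries 1 and 2 (0.109), or when the 2 groups were fitted alone (0.0537). The rise with the diets averaged (1.23-fold, edgeR adjusted p = 0.0107) was lost without control-diet air libraries 4 to 6 (0.0737).

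Of 20 other claudin and tight junction genes 7 were called higher and 1 lower with the diets averaged, beside 18.5% and 16.9% of all genes, with a median log2 change of 0.05. Cldn2, which forms channels for ions and water, rose 1.68-fold (edgeR adjusted p = 0.00199), to 3.23 ± 0.546 CPM on the control diet and 3.33 ± 1.70 on the DHA diet. The claudins Cldn10 and Cldn7 rose 1.22 and 1.12-fold, and Crb3, a protein of apical polarity, rose 1.15-fold. The 1 lower gene was Ocln, the tight junction protein occludin, which was named outside the rule for named genes.

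Krt5, the keratin of airway basal cells (chromosome 15, 101615504 to 101621341), was rare and erratic. Its counts ran from 2 to 118 per library. It had 0.101, 1.65 and 3.98 CPM in control-diet air, 0.541, 1.13 and 3.51 in control-diet ozone, 0.336, 0.747 and 1.94 in DHA-diet air and 0.284, 1.24 and 4.55 in DHA-diet ozone. All 4 groups overlapped, and the log2 changes with ozone had wide 95% intervals, −1.74 to 0.77 on the control diet and −0.46 to 2.17 on the DHA diet (edgeR adjusted p = 0.634 and 0.349). Without control-diet air libraries 1 to 3 the control-diet value turned from −0.48 to 1.17, and no direction was resolved for Krt5, whose counts within control-diet air alone ran from 2 to 93.

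Of 16 other basal cell genes, 3 were called higher and 1 lower with the diets averaged, with a median log2 change of 0.08. The share called higher was close to the 18.5% of all genes and the share called lower was under the 16.9%, so the counts show nothing about basal genes as a list. S100a14, a calcium-binding protein of epithelia, rose from 14.6 ± 1.10 to 28.4 ± 2.14 CPM on the control diet (SD, n = 6; 1.95-fold, edgeR adjusted p = 1.29e-04) and from 15.4 ± 1.99 to 35.7 ± 12.8 CPM on the DHA diet (2.33-fold, adjusted p = 5.75e-06). Icam1, an adhesion receptor for leukocytes, rose 1.19-fold and Lamb3, a laminin chain of the basement membrane, 1.12-fold. Dst, which ties keratin filaments to hemidesmosomes, fell to 0.864 of its air level (edgeR adjusted p = 6.14e-04).

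Calml3 and Cdh26 went the other way. Calml3, a calmodulin-like calcium-binding protein of epithelia (chromosome 13, 3852893 to 3854319), had 10.7, 20.3 and 25.3 CPM in control-diet air and 7.84, 9.12 and 10.9 in control-diet ozone. The DHA-diet values were 8.23, 11.6 and 14.02 CPM in air and 2.77, 7.84 and 9.07 in ozone. Control-diet air libraries 1 to 4 had 18.5 to 25.3 CPM, whereas libraries 5 and 6 had 11.7 and 10.7, and library 6 lay within the control-diet ozone range, so the groups overlapped. On the DHA diet 3 of the 6 ozone libraries lay below all air libraries. The alveolar type 2 marker sum was 26091 to 29816 CPM in libraries 1 to 4 and 38570 and 34272 CPM in libraries 5 and 6, and its part in the Calml3 values was not tested. Calml3 was lower after ozone at 0.504 of its air level on the control diet (log2 −0.99 ± 0.21 SE, edgeR adjusted p = 0.00209) and at 0.626 on the DHA diet (−0.68 ± 0.22, adjusted p = 0.0251). The control-diet call was lost without control-diet air libraries 1 to 3 (edgeR adjusted p = 0.0764). The DHA-diet call was lost without DHA-diet air library 2, 5 or 6 (largest adjusted p 0.0641) or without DHA-diet ozone libraries 1 and 2 (0.102).

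Cdh26, a cadherin of epithelial cells (chromosome 2, 178072308 to 178129160), had 3.42, 5.69 and 6.35 CPM in control-diet air, 1.51, 2.04 and 4.38 in control-diet ozone, 2.40, 2.87 and 3.42 in DHA-diet air and 0.116, 1.72 and 2.45 in DHA-diet ozone. In each diet 5 of the 6 ozone libraries lay below all air libraries, and the lowest value, in DHA-diet ozone library 1, rested on 3 counts. It was lower after ozone at 0.460 of its air level on the control diet (log2 −1.12 ± 0.29 SE, edgeR adjusted p = 0.00912) and at 0.526 on the DHA diet (−0.93 ± 0.32, adjusted p = 0.0333). The control-diet call was lost without control-diet air libraries 1 to 3 (edgeR adjusted p = 0.113). The DHA-diet call was lost without DHA-diet air library 2, 3, 5 or 6 or ozone library 3 or 5 (largest adjusted p 0.0671) and with the 2 groups fitted alone (0.0731). With the diets averaged, both genes passed without each library in turn.

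Markers of ciliated cells, which line the same airways, summed to 1366 to 1814 CPM in control-diet air and 1393 to 1747 in control-diet ozone. The sums were 1234 to 1546 CPM in DHA-diet air and 831 to 1516 in DHA-diet ozone. On each diet 0 of the 12 ciliated markers were called higher and 1 lower (Ccdc39, a protein of motile cilia). Club and secretory cell markers summed to 96009 to 130897, 103012 to 148802, 94929 to 110835 and 62900 to 122494 CPM in the same order, with 1 of 12 called higher and 1 lower on the control diet and 2 higher and 0 lower on the DHA diet. Of all genes tested, 8.93% were called higher and 7.87% lower on the control diet, and 12.7% and 11% on the DHA diet. The counts for ciliated and club markers are close to those shares and are no result about either list. DHA-diet ozone library 1, lowest for Calml3 and Cdh26, also had the lowest sum of both lists. The part of these cells in the Calml3 and Cdh26 values was not tested.

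Most genes listed for the transitional state of alveolar epithelium were called higher after ozone. The list was chosen with earlier results of these data known, so its count is a description only. Whole lung cannot place the change in the alveolar epithelium. Of 26 listed genes besides the members, 17 were called higher and 2 lower with the diets averaged (18.5% and 16.9% of all genes), with a median log2 change of 0.22 against −0.01 over all genes. On the control diet 11 were higher and 3 lower (8.93% and 7.87% of all genes), and on the DHA diet 12 were higher and 1 lower (12.7% and 11%). Lgals3 (galectin-3), a lectin of injured epithelium and macrophages, rose from 109 ± 9.57 to 160 ± 9.66 CPM on the control diet (SD, n = 6; 1.46-fold, edgeR adjusted p = 1.76e-04) and from 122 ± 10.9 to 177 ± 36.4 CPM on the DHA diet (1.45-fold, adjusted p = 1.10e-04). Areg, a ligand of the epidermal growth factor receptor, rose 1.82-fold and 1.55-fold on the control and DHA diets. Clu, an extracellular chaperone, rose 1.21-fold and 1.29-fold, and Tnip3, an inhibitor of NF-κB signalling, 1.79-fold and 2.32-fold. The lower pair was Nupr1, a stress-response regulator, and Tm4sf1, a membrane protein also abundant in endothelium, both named outside the rule for named genes. Several listed genes, Lgals3 among them, are also expressed by macrophages or other cells of the lung.

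**Figure D3:**
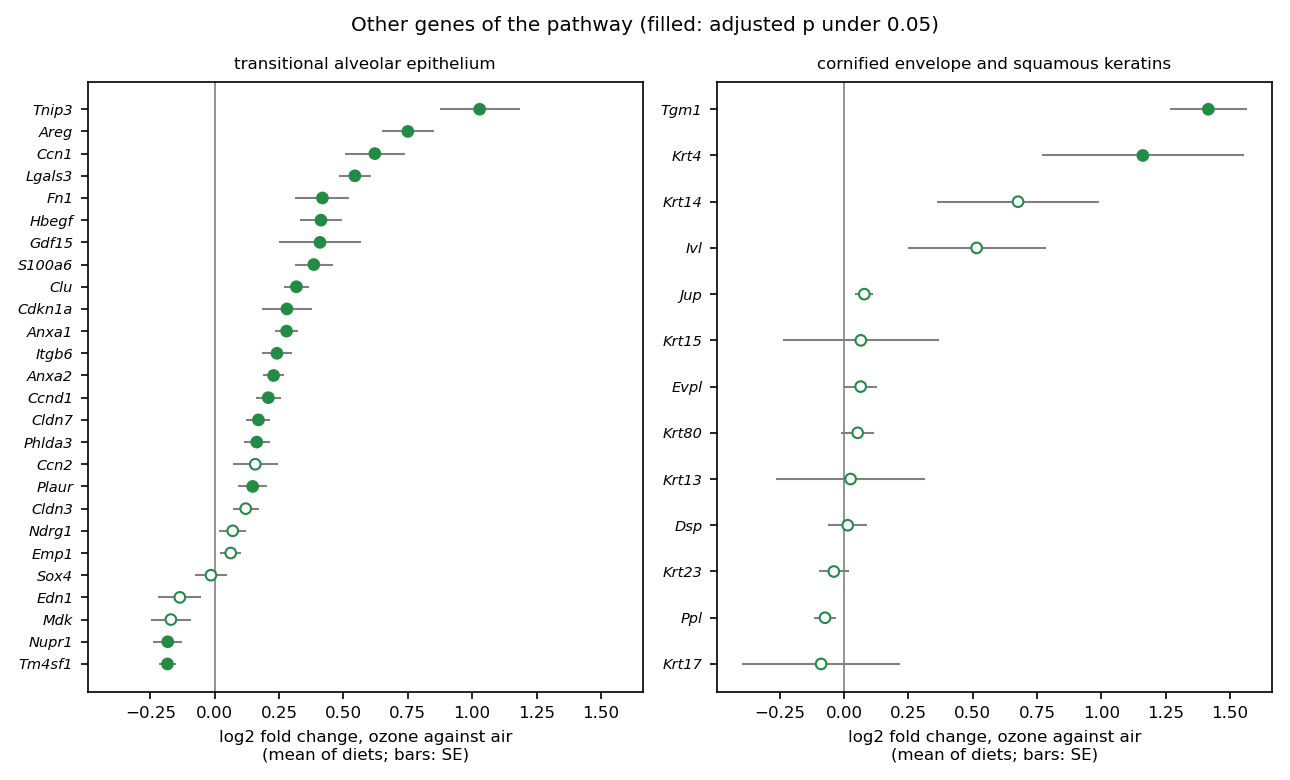
Log2 fold change of ozone against air, averaged over the diets, with SE bars, for 26 genes of the transitional alveolar list (left) and 13 tested genes of the cornified envelope and squamous keratin list (right); filled points passed an adjusted p of 0.05. On the left 17 filled points lie above 0 and 2 below, and on the right only Tgm1 and Krt4 are filled.

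Diet alone gave no call among the 10 genes. In air, DHA against control diet called 0 of the 10 in edgeR (3 at an unadjusted p under 0.05), while 1.15% of all genes were called (17.3% at an unadjusted p under 0.05). The largest log2 differences with an unadjusted p under 0.05 were in Cdh26 (−0.86 ± 0.29 SE, edgeR adjusted p = 0.116), Calml3 (−0.67 ± 0.21, adjusted p = 0.0932) and Cldn4 (−0.32 ± 0.13, adjusted p = 0.201). Cdh26 did not overlap between the diets in air, with 3.42 CPM as both the lowest control-diet and the highest DHA-diet value after rounding, where 0.563% of all genes were lower without overlap. DESeq2 also called 0 of the 10 and limma-voom called 2 lower. Without DHA-diet ozone library 1, Calml3 and Cdh26 were called lower in air on the DHA diet, and without control-diet air library 6 Calml3 was.

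After ozone, DHA against control diet called 0 of the 10 (4 at an unadjusted p under 0.05), and 0% of all genes were called in edgeR (14% at an unadjusted p under 0.05). DESeq2 and limma-voom called 75 and 19 genes, 0 of them among the 10. The log2 differences were 0.84 ± 0.31 for Sprr1a (edgeR adjusted p = 0.249), 0.52 ± 0.15 for Sfn (0.170), 0.22 ± 0.09 for Krt7 (0.302) and −0.67 ± 0.32 for Cdh26 (0.353). Without DHA-diet ozone library 1 these were 0.29, 0.36, 0.10 and −0.40.

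The ozone response was also compared between diets by the interaction of diet and ozone. None of the 10 was called by edgeR, 0 had an unadjusted p under 0.05, and 0% of all genes were called (6.12% at an unadjusted p under 0.05). DESeq2 and limma-voom called 5 and 2 genes, again 0 of the 10. The difference between the diets' log2 responses was 0.94 for Sprr1a (95% interval −0.16 to 2.05, edgeR adjusted p = 0.874), 0.34 for Sfn (−0.11 to 0.78) and 0.18 for Krt19 (−0.08 to 0.43). Krt8 had 0.14 (−0.10 to 0.39), Krt7 0.14 (−0.14 to 0.42), Krt18 0.09 (−0.16 to 0.33) and Cldn4 0.23 (−0.15 to 0.61). For Calml3 it was 0.31 (−0.32 to 0.95), for Cdh26 0.19 (−0.71 to 1.10) and for Krt5 1.33 (−0.48 to 3.15). Each interval includes 0, and for the simple keratins the intervals span differences up to about the size of the control-diet response itself. Without DHA-diet ozone library 1 the Sprr1a difference was 0.40.

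Within groups the libraries differed in a shared way. DHA-diet ozone library 1 was the highest of its group for 7 of the 10 genes and the lowest for 2, Calml3 and Cdh26. The same library had a neutrophil marker sum of 284 CPM and a proliferating cell marker sum of 358 CPM, the highest of the 24 for the latter. DHA-diet ozone library 2 had the highest neutrophil sum, 370 CPM, and the highest Cldn4 of the series, 37.2 CPM. Of 11 tested neutrophil markers 8 were called higher on the DHA diet, where 12.7% of all genes were. On the control diet 1 was, where 8.93% of all genes were. The interaction of diet and ozone called 0 of the 11. The part of neutrophils in the epithelial genes was not tested.

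Correlations of log2 CPM after removal of group means describe which genes varied together over the 24 libraries, which share depth scaling and cell mixture. Krt8 and Krt18 had a Pearson's r of 0.90, Krt8 and Krt19 0.86, and Krt18 and Krt19 0.86. Without DHA-diet ozone library 1 these stayed at 0.87, 0.80 and 0.82. Krt7 was less tied to Krt18 (0.42, and 0.14 without that library) than to Sprr1a (0.78 and 0.63). The opposed pair Calml3 and Cdh26 had an r of 0.73 with each other, 0.47 without that library, and Cdh26 and Krt7 had −0.72 and −0.41.

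**Figure D4:**
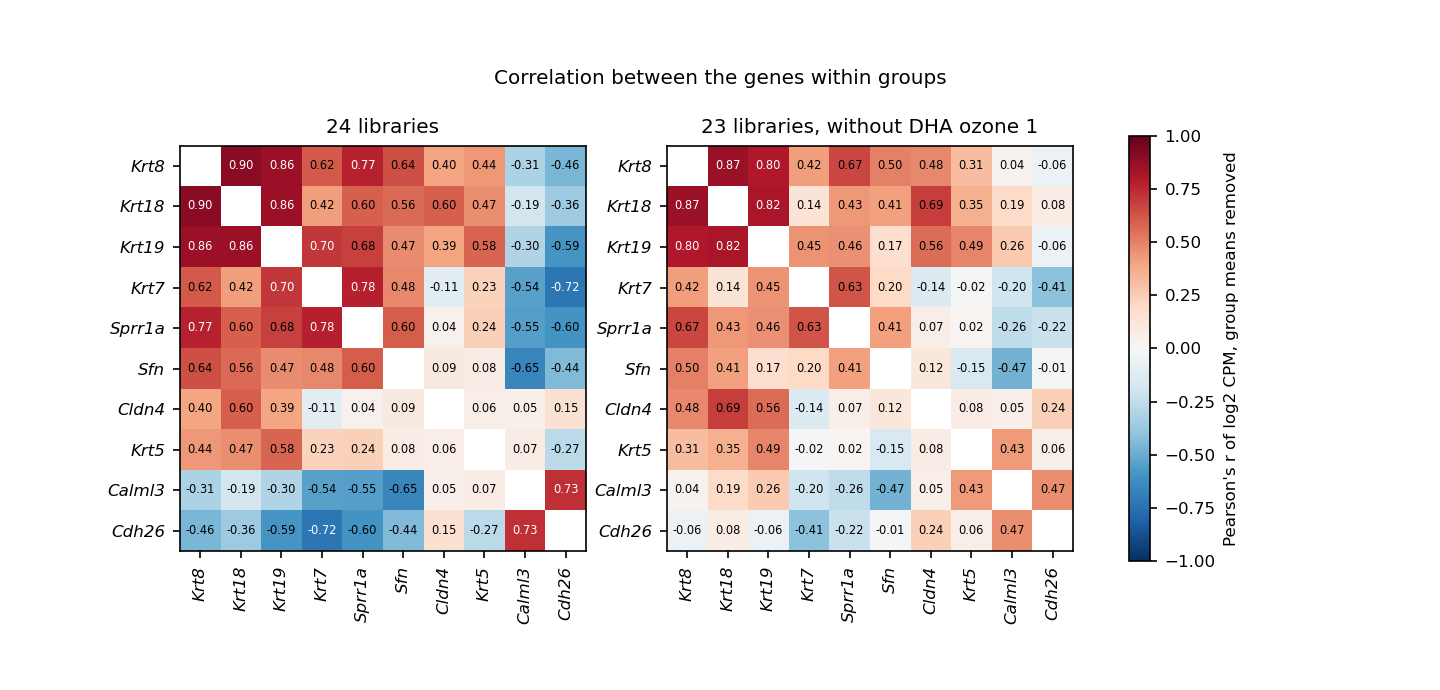
Pearson's r between the 10 genes, from log2 CPM with group means removed, over 24 libraries (left) and over the 23 libraries left without DHA-diet ozone library 1 (right). Krt8, Krt18 and Krt19 form a block of 0.86 to 0.90 that stays at 0.80 to 0.87 on the right, while the negative values of Calml3 and Cdh26 weaken.

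The genes whose within-group pattern was most like each member were ranked by the same correlation over 24 libraries. Sprr1a was most like Socs3, a feedback inhibitor of cytokine signalling (r = 0.87, or 0.73 without the 2 libraries of most extreme Sprr1a), and Ppm1g, a phosphatase (0.87). For Krt7 the closest were Cdkn1a, the p21 inhibitor of the cell cycle (0.91, or 0.83 without the 2 most extreme libraries), and Tnfrsf12a, the receptor of TWEAK (0.89). Krt8 was most like Rtn4, a shaping protein of the endoplasmic reticulum (0.87), and Ly6g6c (0.85). For Krt18 these were F3, tissue factor of blood clotting (0.86), and Rtn4 (0.86). Krt19 came closest to Hbegf, a ligand of the epidermal growth factor receptor (0.85), and Hspa9, a mitochondrial chaperone (0.83). Cdkn1a and Hbegf are also on the list of transitional genes.

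Sfn was most like Ddx21, an RNA helicase (0.82), and Ctps, which makes CTP (0.82). Krt5 varied with Krt15, another keratin of basal cells (0.84), and with Ltf, lactoferrin of glands and neutrophils (0.83). Cldn4 lay closest to Abcc1, an export pump (0.78), and Rfx5, a regulator of MHC class II genes (0.77). Calml3 was most like Ky (0.88) and Unc79 (0.86), and Cdh26 most like Phkg1, a phosphorylase kinase subunit (0.87), and Mpp4 (0.85). Of these, Socs3 rose 0.63 and F3 0.60 on the log2 scale with ozone averaged over diets (edgeR adjusted p = 1.40e-05 and 4.24e-06), and Ky fell by 0.73 (1.67e-05). Without the 2 libraries of most extreme values for the member, the lowest r was 0.51, for Cdh26 and Mpp4. It was 0.60 for Cldn4 and Rfx5, 0.66 for Cldn4 and Abcc1, and 0.68 for Krt19 and Hbegf.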

How the data were processed

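RNA was extracted from mouse lung and sequenced in 24 libraries. Per the submitters' processing notes, the authors used Partek, STAR and HTSeq with the mm39 build; no version, annotation or strand setting is stated. As deposited, each value is a raw count of reads for 1 gene, with the largest gene, Scgb1a1, rounded. Library totals ran from 18053493 to 26225630, and all columns were mapped to a labelled sample. Differences between 2 libraries of a group always exceeded counting noise (smallest chi-square per degree of freedom 4.71).

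Genes were filtered with filterByExpr (minimum count 10, total 15), scaled by TMM, then tested with the quasi-likelihood method of edgeR 4.0.16 under R 4.3.3, with 1 mean per group and 20 residual degrees of freedom. Each SE was derived from the F statistic. Log2 CPM used a prior count of 2. Levels per kilobase used exon lengths of GENCODE vM21, an annotation of an older build, for length only. The gene test was tested on simulated data. Ratios were tested with exact permutations in scipy 1.17.1.

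The genes and lists were chosen with earlier results of these data known. All 10 genes were named, and of each list up to 4 called genes with the smallest p for ozone averaged over diets, or 2 where none was called; exceptions are stated, and 1 gene that the rule names is not reported here. The comparisons share groups, so their values are not independent. Alternatives were other scalings, filters, thresholds, tests (DESeq2 1.42.0, limma 3.58.1), a replicate block and libraries left out. The mesothelial, large airway cartilage and thymus marker lists gave 0 of 10, 0 of 3 and 0 of 4 genes called with the diets averaged (edgeR). On the control diet 1 of the 3 cartilage genes was called lower after ozone, where 7.87% of all genes were. On the DHA diet 0 of the 3 were called. The mesothelial and thymus lists gave 0 calls for ozone on either diet.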

Additional observations from a re-analysis of the deposited data

Results flagged for a closer look

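A single library stood apart from the other 5 of its group in 6 of 40 group and gene combinations, judged by Dixon's test for a gap at 1 end of the range. Chance marks about 5% of such groups. In DHA-diet ozone library 1 these were Sprr1a at 26.7 CPM, Krt19 at 495 CPM and Krt5 at 4.55 CPM, all high, and Calml3 at 2.77 CPM, low. In DHA-diet ozone library 2 it was Cldn4 at 37.2 CPM, and in control-diet ozone library 1 Krt5 at 3.51 CPM. DHA-diet ozone library 1 accounts for 4 of the 6, and the same library had the lowest sums of ciliated (831 CPM) and club cell markers (62900 CPM) and the highest of proliferating cell markers (358 CPM). Control-diet ozone library 1 had the lowest sum of mesothelial markers (361 CPM). Whether these differences bear on the values was not tested.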

How the results depend on the processing

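Without control-diet air libraries 1 to 3 the calls on the control diet fell from 8 to 4 (4 higher, 0 lower). A fold of at least 1.5 left 3 calls on the control diet, 5 on the DHA diet and 4 with the diets averaged. For diet in air, where edgeR called 0, limma-voom called 2, the 2 groups fitted alone 1, and the fits without control-diet air libraries 4 to 6 or DHA-diet ozone libraries 1 and 2 called 2 each, all lower on DHA; leaving out single libraries gave 0 to 2. Under the other settings tried, counts of the 10 genes stayed within 1.5 times.

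Directions turned only in uncalled values. Without control-diet air libraries 1 to 3, Krt5 turned to 1.17 for control-diet ozone. For diet in air, Krt8 turned to 0.0338, Krt18 to 0.0879, Krt19 to 0.0867, Krt7 to −0.00132 and Krt5 to 0.55. For the interaction, Krt18 turned to −0.0194, Krt5 to −0.31 and Cdh26 to −0.00691. Without control-diet air libraries 4 to 6, Sprr1a turned to 0.19 for diet in air and Krt5 to −0.18 for ozone averaged. Without DHA-diet ozone libraries 1 and 2, Krt18 turned to −0.0457 and Krt5 to −0.25 for diet after ozone, Krt18 to −0.0258 for the interaction and Krt5 to −0.0585 for ozone averaged, where limma-voom gave −0.0444. Leaving out single libraries gave, for diet in air, −0.0607 to 0.0207 for Krt8, −0.0640 to 0.0170 for Krt18, −0.0638 to 0.0117 for Krt19 and −0.26 to 0.0795 for Sprr1a. It gave −0.00230 to 0.13 for Krt18 and −0.45 to 0.73 for Krt5 in diet after ozone, and −0.17 to 0.39 for Krt5 in ozone averaged.

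With the replicate number as a block, the calls of the 10 genes stayed 8 on the control diet, 9 on the DHA diet, 9 with the diets averaged and 0 elsewhere, and genes called for diet in air fell from 186 to 85. Same-numbered libraries correlated at −0.0169 on average and 0 of 24 were closest to their own number. No pairing by number was seen, and the labels do not say what the number stands for. Over all genes, calls for diet in air numbered 589 in DESeq2, 849 in limma-voom, 359 with the 2 groups alone and 0 to 1551 without 2 or 3 libraries, and for control-diet ozone 1803 without control-diet air libraries 1 to 3, against 2713. Leaving out single libraries gave 49 to 716 for diet in air, 0 to 144 for diet after ozone and 0 to 3 for the interaction; without control-diet air libraries 4 to 6 the latter pair had 27 and 4. An adjusted p under 0.01 left 1245, 2101 (of 3824) and 3769 (of 5726) genes for ozone on the control diet, the DHA diet and averaged and 20 for diet in air, and a fold of at least 1.5 left 443, 642, 641 and 26. With library totals in place of TMM the share of calls that were higher was 35.1% in place of 53.2% on the control diet, 41.6% in place of 52.2% with the diets averaged and 38.9% in place of 62.9% for diet in air. Counts were as few as 2 for Krt5 and 3 for Cdh26 in single libraries, and what depth contributed to their spread was not tested.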
